A study of Mus musculus with 4 samples.

Results

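The pan-leukocyte transcripts are 36 mouse genes of blood cells that fibroblasts mostly lack, many of them used by most white cell lineages and some by fewer. They were listed by name with earlier results of these data known. All 36 were found by gene name on the arrays, among 29658 genes in all. They were used here as a measure of blood cell RNA in samples labelled as fibroblasts. By role they comprise 14 surface and membrane genes, 12 genes of the actin cytoskeleton and its regulators, 5 signalling genes, 4 transcription factor genes and 1 gene for a secreted protease inhibitor.

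Leukocytes share a set of proteins that other cells mostly lack, because these cells crawl, sense antigen through receptors that signal by tyrosine phosphorylation, and adhere under flow. Many of these genes have a close relative that nearly every cell uses, so the leukocyte version of Rac, plastin, kindlin or WASP stands beside a common one. Mast cells, which store histamine and proteases and carry the IgE receptor and Kit on their surface, arise from blood progenitors and keep this shared set.

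The arrays were single-colour Agilent arrays of Swiss 3T3 cells, a mouse fibroblast line, cultured with bone marrow-derived mast cells. The groups were Lpar1-/- fibroblasts (KO) labelled 24 h, Lpar1+/+ fibroblasts (WT) labelled 24 h, and KO and WT fibroblasts labelled 0 h, with 1 array each. Lpar1 encodes a receptor for the signalling lipid lysophosphatidic acid, and the KO cells were 1 single-cell clone made with Cas9, so genotype and clone cannot be told apart. In all groups the mast cells were WT, had been grown from marrow in 10 ng/ml IL-3 to over 97% Kit and IgE receptor double-positive cells, and the coculture had 100 ng/ml SCF, the ligand of Kit. What cells the 0 h samples contained is not given in the labels. Fibroblasts were separated from mast cells by adherence after trypsin, or with beads against CD117 (Kit), and the labels do not say which was used for which array. Each array held 200 ng of RNA pooled from 3 samples, so no value has a replicate and no difference a test. The question that bears on these genes is how much mast cell RNA each array labelled as fibroblast carried.

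Signal is given as log2 relative to the array's own 75th percentile, so 0 is that percentile and 1 unit is 2-fold. Levels of different probes are not compared with each other. Errors are standard errors (SE) from the scanner software's spot error and cover neither culture nor labelling. A difference is given as measured only if the probe stood well above background on each array it uses, and as called if it reached 2-fold. Spots well above background made up 62.1% (KO 24 h), 67.3% (WT 24 h), 71.5% (KO 0 h) and 72.7% (WT 0 h) of all spots, and no spot was saturated. The floor, the lowest signal well above background, lay at −6.69 (KO 24 h), −6.16 (WT 24 h), −6.77 (KO 0 h) and −7.36 (WT 0 h).

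The pan-leukocyte transcripts were strong on both 0 h arrays and close to background on both 24 h arrays. Of the 36, 27 (KO 24 h) and 26 (WT 24 h) were well above background on the 24 h arrays, against 36 (KO 0 h) and 35 (WT 0 h) on the 0 h arrays. Of all 29658 genes, 18190 (KO 24 h) and 19997 (WT 24 h) were, against 21167 (KO 0 h) and 21492 (WT 0 h). The members' median level was −5.34 on KO 24 h and −5.37 on WT 24 h, against 2.27 on KO 0 h and 1.16 on WT 0 h. The median over all genes stayed between −4.83 and −4.24 on the 4 arrays. Arhgdib was the only member above the 75th percentile on either 24 h array. Without it, the linear levels of the other 35 summed to 1.99 on KO 24 h and 2.03 on WT 24 h, against 340.3 on KO 0 h and 195.4 on WT 0 h. Of the 36, 23 were well above background on all 4 arrays, 7 on 3, 5 on 2, and Fgr on KO 0 h alone. For 35 of 36, both 24 h arrays read below both 0 h arrays, as did 13.2% of all genes; Fgr was the exception. In RNA from mixed cultures, fewer cells of a type, less RNA per cell and the separation used cannot be told apart.

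**Figure D1:**
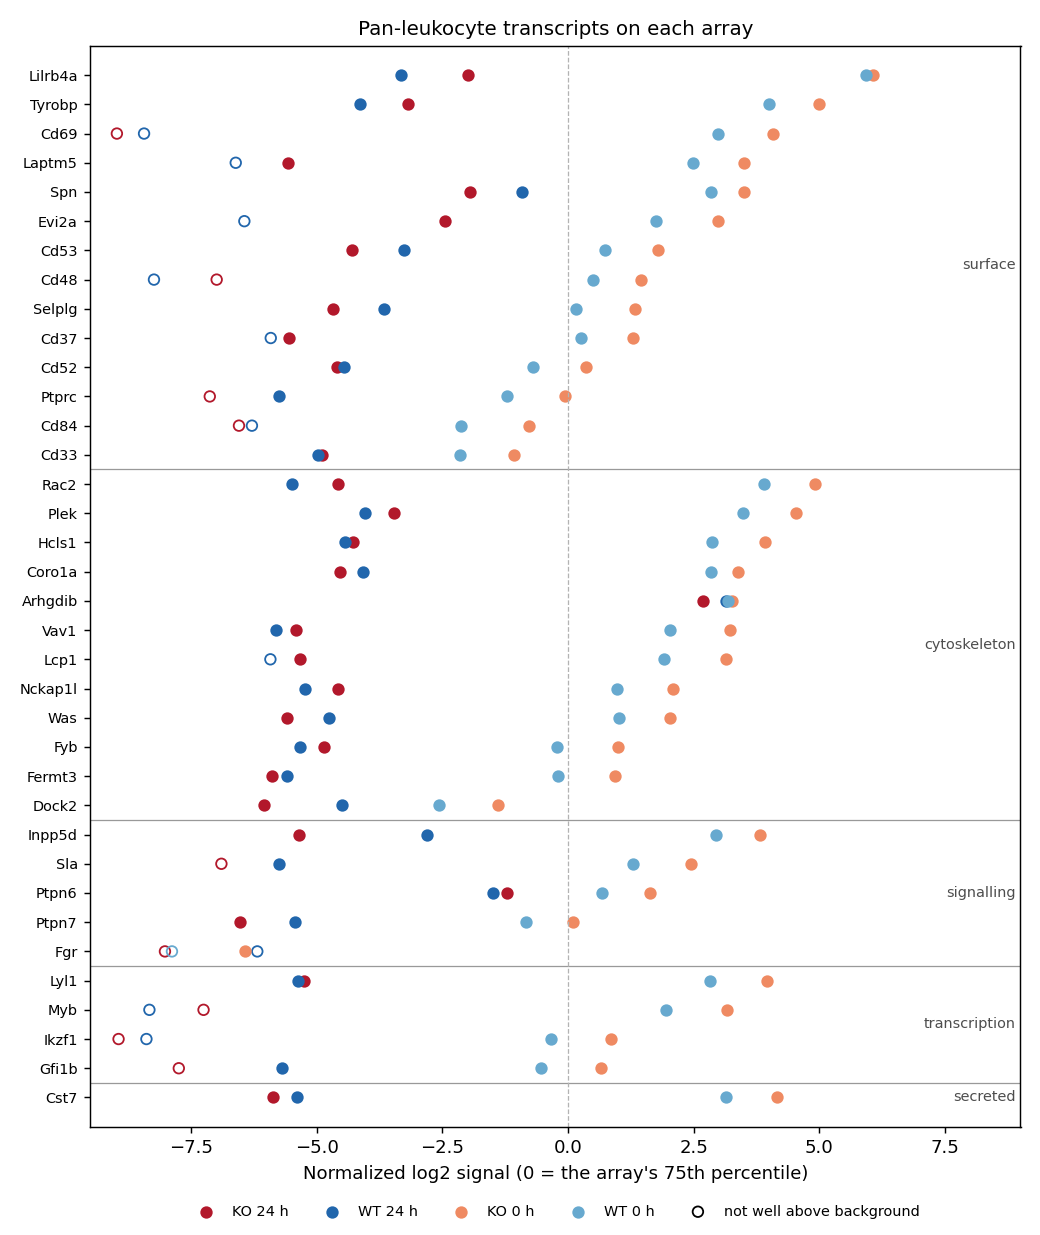
Normalized log2 signal (x axis, 0 is each array's 75th percentile) of the 36 pan-leukocyte transcripts (rows, by role) on KO 24 h, WT 24 h, KO 0 h and WT 0 h; open circles were not well above background. Both 24 h points lie left of both 0 h points in every row except Fgr, by less than 1 unit for Arhgdib, and the KO 0 h point lies right of the WT 0 h point in every row.

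Between 24 h and 0 h in KO cells, 26 of the 27 measured members were at least 2-fold lower and none higher, with a median difference of −6.83; 10.9% of all measured genes were lower and 9.48% higher, with a median of 0.23. In WT cells 25 of 26 were lower and none higher, with a median of −5.56, where 5.58% of all measured genes were lower and 15.8% higher, with a median of 0.28. The members left out were those too dim at 24 h. With 9 members at their bounds the median over all 36 was −7.45 in KO cells, and with 9 at their bounds it was −6.16 over 35 in WT cells, Fgr being below background on both WT arrays. The median SE of a member's difference was 0.22 in KO cells and 0.23 in WT cells. As a share of the 0 h signal, the median measured member kept 0.876% at 24 h in KO cells (range 0.0966% to 66.7%) and 2.12% in WT cells (range 0.151% to 97.3%). Under 1% was kept by 16 of 27 members in KO cells and 10 of 26 in WT cells, against 117 of 17836 and 53 of 19160 other genes.

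**Figure D2:**
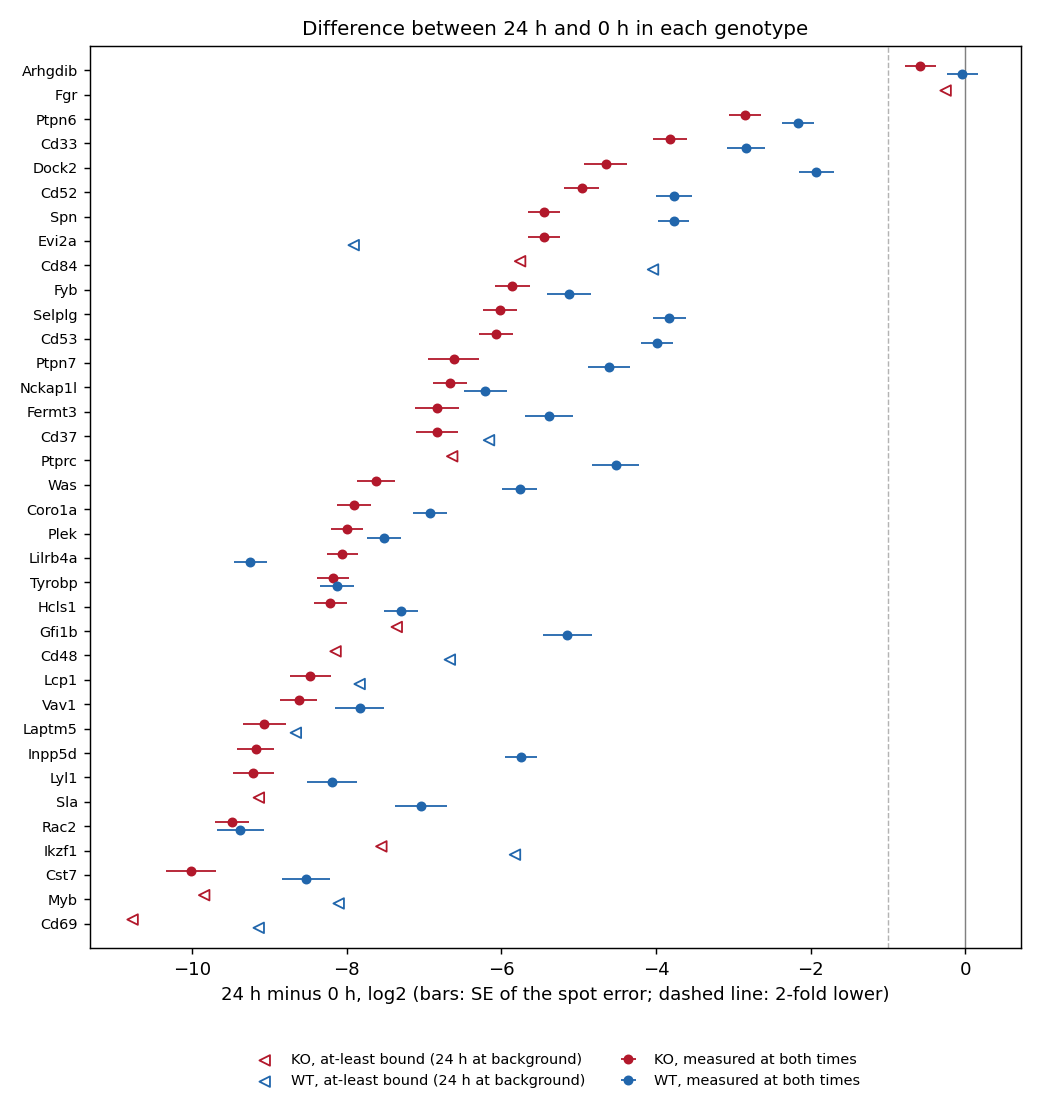
Difference between 24 h and 0 h (x axis, log2) of each pan-leukocyte transcript in KO (red) and WT (blue) cells; filled points were measured at both times with bars of 1 SE, and open triangles are at-least bounds where the 24 h array was not well above background. Arhgdib and the Fgr bound lie right of the dashed line at 2-fold lower, and all other points lie left of it.

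Of the 14 surface genes, all 10 measured in KO cells and all 8 measured in WT cells were at least 2-fold lower at 24 h, and the others were too dim at 24 h to give more than a bound. Tyrobp, the DAP12 adaptor whose tyrosine motif recruits Syk, and Cd53, a tetraspanin of leukocytes, are shown by their probes because each probe spans more genome than its own length and so crosses a splice junction, reading spliced RNA. Both probes are 60 bases, 5′ to 3′, and hold an open reading frame.
Tyrobp, chr7:31200651-31202378 (mm9, plus strand): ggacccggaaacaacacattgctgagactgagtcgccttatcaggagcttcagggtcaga
Cd53, chr3:106565046-106566140 (mm9, minus strand): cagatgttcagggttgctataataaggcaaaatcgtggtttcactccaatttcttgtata
Tyrobp read −3.18 on KO 24 h and −4.13 on WT 24 h, against 5.0 on KO 0 h and 3.99 on WT 0 h. The difference between times was −8.17 ± 0.21 in KO cells and −8.13 ± 0.22 in WT cells (SE), which lay within 1 SE of each other. Cd53 read −4.29 on KO 24 h and −3.26 on WT 24 h, against 1.79 on KO 0 h and 0.73 on WT 0 h. For Cd53 the difference was larger in KO cells, −6.07 ± 0.22, than in WT cells, −3.99 ± 0.21.

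Lilrb4a, an inhibitory immunoglobulin-like receptor of myeloid and mast cells (chr10:51216160-51216219, mm9), read −1.98 on KO 24 h and −3.32 on WT 24 h, against 6.07 on KO 0 h and 5.92 on WT 0 h. The 24 h values lay over 8 units below the 0 h values in KO cells (−8.06 ± 0.20) and over 9 in WT cells (−9.25 ± 0.21). Its second probe (chr10:51212976-51213891) read −6.62 on KO 24 h and −5.94 on WT 24 h, against 2.05 on KO 0 h and 1.09 on WT 0 h. The probes thus disagreed on which genotype was higher at 24 h. Lilrb4a has a closely similar neighbouring gene, and how far each probe reads that gene was not tested.

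Laptm5, a lysosomal membrane protein that moderates antigen receptor levels (chr4:130490785-130490844, mm9), read −5.56 on KO 24 h and, not well above background, −6.61 on WT 24 h, against 3.51 on KO 0 h and 2.49 on WT 0 h. It was −9.07 ± 0.28 in KO cells and at least 404-fold lower at 24 h in WT cells. Cd69, a lectin-like receptor that lymphocytes put on their surface on activation (chr6:129217697-129217756, mm9), read 4.08 on KO 0 h and 2.97 on WT 0 h and was not well above background on either 24 h array. Cd69 was at least 1746-fold lower at 24 h in KO cells and at least 564-fold lower in WT cells, the widest at-least folds of the 36. Cd48, a lipid-anchored ligand of the SLAM family, was likewise below background at 24 h and at least 283-fold lower in KO cells and 102-fold lower in WT cells.

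Ptprc encodes CD45, the phosphatase by which leukocytes are defined in flow cytometry (chr1:139961083-139961142, mm9). It read −7.12 on KO 24 h, not well above background, and −5.74 on WT 24 h, against −0.05 on KO 0 h and −1.22 on WT 0 h. Ptprc was at least 99.5-fold lower at 24 h in KO cells and differed by −4.52 ± 0.30 in WT cells.

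Evi2a and Spn differed between the 24 h arrays in opposite directions. Evi2a encodes a membrane protein of unsettled function whose gene lies inside an intron of Nf1 (chr11:79340124-79340183, mm9). It read −2.46 on KO 24 h and, not well above background, −6.44 on WT 24 h, against 2.99 on KO 0 h and 1.75 on WT 0 h. On the 24 h arrays Evi2a was thus at least 13.1-fold higher in KO cells, the widest difference between the 24 h arrays among the 36. Spn, the sialomucin CD43 (chr7:134277313-134277372, mm9), read −1.94 on KO 24 h and −0.92 on WT 24 h, against 3.51 on KO 0 h and 2.85 on WT 0 h, and its second probe gave time differences within 0.14 of these.

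The other surface genes lay in the same order. Selplg, the ligand of P-selectin, differed between 24 h and 0 h by −6.02 ± 0.22 in KO cells and −3.83 ± 0.21 in WT cells. Cd52, a short lipid-anchored peptide, differed by −4.96 ± 0.22 in KO cells and −3.77 ± 0.24 in WT cells. Cd37, a tetraspanin, differed by −6.83 ± 0.27 in KO cells and was at least 71.5-fold lower in WT cells. The second probe of Cd37 differed by −4.17 in WT cells, smaller in size than that bound. Cd84, a SLAM family receptor, was at least 54.1-fold lower in KO cells and 16.5-fold lower in WT cells. The second probe of Cd84, well above background on every array, differed by only −2.63 in KO cells and −0.54 in WT cells. The Cd84 bounds thus hold for the first probe only. By the probes used, Cd33, a sialic acid-binding lectin, had the smallest time difference of the surface group. It was −3.82 ± 0.22 in KO cells and −2.84 ± 0.24 in WT cells.

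The cytoskeletal genes included the largest measured difference in WT cells and the only measured member that stayed within 2-fold in both genotypes. Rac2, the Rac GTPase of blood cells (chr15:78391452-78391511, mm9), read −4.58 on KO 24 h and −5.48 on WT 24 h, against 4.90 on KO 0 h and 3.89 on WT 0 h. It differed between 24 h and 0 h by −9.49 ± 0.22 in KO cells and −9.37 ± 0.30 in WT cells, the lowest value of any measured member in WT cells. Arhgdib, which encodes a GDP-dissociation inhibitor of small GTPases (chr6:136872241-136872300, mm9), read 2.69 on KO 24 h and 3.15 on WT 24 h, against 3.27 on KO 0 h and 3.19 on WT 0 h. All 4 Arhgdib readings lay within 0.58 of each other. Its time difference was −0.58 ± 0.20 in KO cells and −0.04 ± 0.20 in WT cells, and it passed 2-fold lower in KO cells when arrays were scaled on housekeeping genes, fibroblast markers or spike-in RNAs (−1.02, −1.50 and −1.18).

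Plek, a major substrate of protein kinase C, Hcls1, a cortactin relative that binds Arp2/3, and Coro1a, an actin-binding coronin, showed wide and similar differences. Plek differed by −8.00 ± 0.21 in KO cells and −7.52 ± 0.22 in WT cells. Hcls1 differed by −8.21 ± 0.21 in KO cells and −7.30 ± 0.22 in WT cells. Coro1a read −4.54 on KO 24 h and −4.07 on WT 24 h, against 3.37 on KO 0 h and 2.85 on WT 0 h. Vav1, an exchange factor for Rac (chr17:57467307-57467366, mm9), read −5.41 on KO 24 h and −5.81 on WT 24 h, against 3.21 on KO 0 h and 2.02 on WT 0 h, a difference of −8.62 ± 0.24 in KO cells and −7.84 ± 0.32 in WT cells. Its second probe, dimmer at 0 h (0.10 on KO 0 h and −1.05 on WT 0 h), gave a WT time difference 3.32 smaller in size, and its 24 h readings also lay near background. Lcp1, the leukocyte plastin that bundles actin, differed by −8.47 ± 0.27 in KO cells and was at least 228-fold lower in WT cells.

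Fermt3, kindlin-3, which activates integrins, and Dock2, an exchange factor for Rac, are also shown by junction-crossing 60-base probes with an open reading frame, 5′ to 3′.
Fermt3, chr19:7074257-7076292 (mm9, minus strand): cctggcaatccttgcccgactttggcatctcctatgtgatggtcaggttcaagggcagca
Dock2, chr11:34129586-34130706 (mm9, minus strand): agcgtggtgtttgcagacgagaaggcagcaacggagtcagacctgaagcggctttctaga
Fermt3 read −5.89 on KO 24 h and −5.58 on WT 24 h, against 0.94 on KO 0 h and −0.20 on WT 0 h. Dock2 read −6.04 on KO 24 h and −4.48 on WT 24 h, against −1.39 on KO 0 h and −2.56 on WT 0 h. The genotypes changed places between the times: KO was the lower at 24 h and the higher at 0 h. Dock2 differed by −4.65 ± 0.28 in KO cells and by −1.93 ± 0.22 in WT cells, the smallest call in WT cells. Nckap1l, the blood cell subunit of the WAVE complex, differed by −6.66 ± 0.22 in KO cells and −6.21 ± 0.28 in WT cells. Was, the Wiskott-Aldrich protein that activates Arp2/3, differed by −7.62 ± 0.25 in KO cells and −5.77 ± 0.23 in WT cells. Fyb, an adaptor that links receptors to integrins, differed by −5.86 ± 0.22 in KO cells and −5.12 ± 0.28 in WT cells.

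Among the signalling genes, Inpp5d, the lipid phosphatase SHIP1 that restrains mast cell degranulation (chr1:89616958-89617017, mm9), read −5.35 on KO 24 h and −2.81 on WT 24 h, against 3.83 on KO 0 h and 2.93 on WT 0 h. Its time difference was −9.18 ± 0.24 in KO cells and −5.74 ± 0.21 in WT cells, the widest gap between genotypes of any measured member. Ptpn6, the phosphatase SHP-1 (chr6:124671114-124671173, mm9), read −1.21 on KO 24 h and −1.49 on WT 24 h, against 1.64 on KO 0 h and 0.67 on WT 0 h. Ptpn6 kept 13.9% of its 0 h signal in KO cells and 22.3% in WT cells, more than the other measured members except Arhgdib and, in WT cells, Dock2 (26.3%).

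Ptpn7, a phosphatase of MAP kinases, differed by −6.62 ± 0.33 in KO cells and −4.61 ± 0.27 in WT cells. Its second probe read −5.26 on WT 24 h and −5.16 on WT 0 h, a difference of −0.10 that lay 4.5 away from the first. Sla, an adaptor that dampens antigen receptor signalling, was at least 563-fold lower at 24 h in KO cells and differed by −7.04 ± 0.33 in WT cells. Fgr, a Src-family kinase of neutrophils and monocytes (chr4:132557522-132557581, mm9), was well above background on KO 0 h alone, where it read −6.43, just above that array's floor, so its time difference in KO cells is only a bound of at least 1.19-fold lower.

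Of the 4 transcription factor genes, 3 were not well above background at 24 h in KO cells. Lyl1, a basic helix-loop-helix factor of blood progenitors (chr8:87228531-87228590, mm9), was the exception and read −5.25 on KO 24 h and −5.36 on WT 24 h, against 3.95 on KO 0 h and 2.82 on WT 0 h. Its difference was −9.21 ± 0.26 in KO cells and −8.19 ± 0.32 in WT cells. Myb, which maintains blood progenitors (chr10:20844736-20844795, mm9), read 3.15 on KO 0 h and 1.94 on WT 0 h and was not well above background at 24 h, at least 919-fold lower in KO cells and 275-fold lower in WT cells. Ikzf1, the Ikaros zinc finger factor, was at least 188-fold lower in KO cells and 56.7-fold lower in WT cells. A dimmer Ikzf1 probe, well above background on both WT arrays, differed by 0.04 in WT cells. The WT bound thus does not hold for every Ikzf1 probe. Gfi1b, a repressor of the erythroid and megakaryocyte lines, was at least 164-fold lower in KO cells and differed by −5.15 ± 0.31 in WT cells.

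Cst7, the only secreted member, encodes cystatin F, an inhibitor of lysosomal cysteine proteases (chr2:150404490-150404549, mm9). It read −5.87 on KO 24 h and −5.38 on WT 24 h, against 4.15 on KO 0 h and 3.15 on WT 0 h. Its difference of −10.02 ± 0.33 was the lowest of any measured member in KO cells, and it was −8.53 ± 0.31 in WT cells.

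The widely expressed relatives of these genes did not share the difference between times. Of 24 measured relatives on a list of 25, none was at least 2-fold lower at 24 h in either genotype, 2 were higher in KO cells and 1 in WT cells, and their medians were 0.46 in KO cells and 0.29 in WT cells. Rac1, the Rac GTPase of most cells, read 4.69 on KO 24 h and 5.06 on WT 24 h, against 4.45 on KO 0 h and 4.75 on WT 0 h, so the 4 readings lay close together while those of Rac2 lay over 8 units apart. Inppl1, the common SHIP relative, differed by 0.32 in KO cells and 0.16 in WT cells, and Fermt2, kindlin-2 of most adherent cells, by 0.42 in KO cells and 0.94 in WT cells. Dock1, a relative of Dock2, was higher at 24 h by 1.01 in KO cells and 1.14 in WT cells. The other called relative was Mybl2, the cell cycle member of the Myb family, at 1.01 in KO cells and −0.07 in WT cells. Relatives not called included Ptpn11, the phosphatase SHP-2 (0.53 in KO cells and 0.15 in WT cells), Arhgdia (0.32 in KO cells and 0.08 in WT cells), Cst3 (0.13 in KO cells and 0.10 in WT cells) and Cd63 (0.23 in KO cells and 0.12 in WT cells). Arhgdib lay nearer to its relative Arhgdia than any other measured member did to its own.

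**Figure D3:**
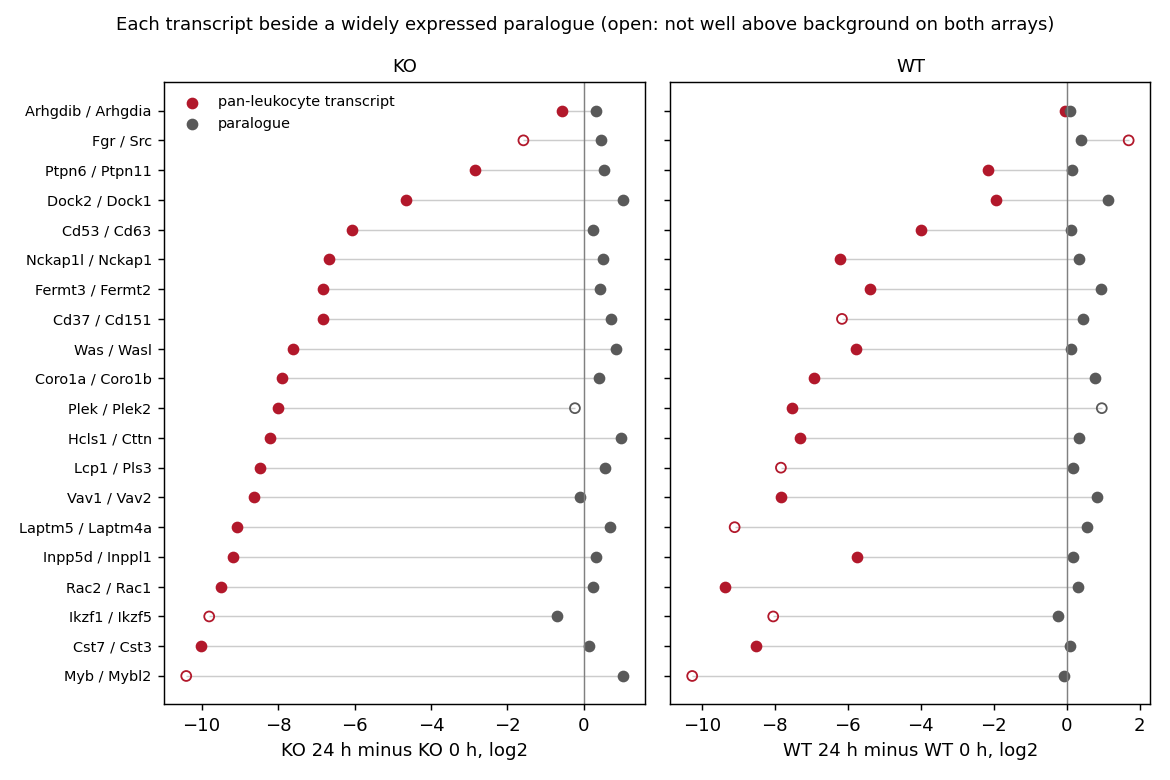
Difference between 24 h and 0 h (x axis, log2) of pan-leukocyte transcripts (red) and a widely expressed relative (grey), joined by a line, in KO cells (left) and WT cells (right). Transcripts without a listed relative are not shown, and open points were not well above background on both arrays. The relatives lie within about 1 unit of 0 in both panels. Every measured pan-leukocyte transcript shown, except Arhgdib, lies more than 1 unit left of 0.

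The 2 arrays labelled 0 h differed from each other in these genes by a nearly constant amount. Each of the 36 read higher on KO 0 h than on WT 0 h, where 9340 of 20307 measured genes over all read lower. Under scaling on the spike-in RNAs, however, Arhgdib and Lilrb4a turned to −0.28 and −0.22. Of 35 measured, 27 were at least 2-fold higher and none lower, where 9.34% of all measured genes were higher and 4.07% lower. The median was 1.06, a 2.08-fold ratio, and the middle 50% of members lay between 1.00 and 1.17, each with an SE of 0.20. Over all 20307 measured genes the median was 0.06 and the middle 50% lay between −0.27 and 0.53. The members near the median had unlike roles and unlike signals: the difference was 1.01 for Rac2, 1.01 for Tyrobp, 1.01 for Laptm5, 1.00 for Cst7 and 1.05 for Cd52. At the upper end stood Cd84 (1.34), Evi2a (1.25) and Lcp1 (1.23). At the lower end stood Arhgdib (0.08), Lilrb4a (0.15), Coro1a (0.52) and Spn (0.65), and the second probe of Lilrb4a gave 0.96. By role group the medians were 1.05 (surface), 1.08 (cytoskeleton), 0.95 (signalling) and 1.20 (transcription factors).

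Probes of the same gene gave nearly the same 0 h difference. For the 14 members with more than 1 probe, the spread between probes had a median of 0.083, and 12 lay within 0.25; Cd84 and Lilrb4a were the exceptions, at 0.77 and 0.81. The 3 probes of Ikzf1 lay within 0.10 of each other although their signals at WT 0 h ranged from −5.80 to −0.34. For the difference between times in WT cells, where the 24 h signals were near background, the probes of 6 members spread by a median of 1.24 and by up to 4.5.

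The size of the 0 h difference depends on the scale. It was 1.42 and 1.79 in the median when arrays were scaled on housekeeping genes and on fibroblast markers, and 0.69 on the spike-in RNAs, where 0 of 35 members passed 2-fold; the median over all genes moved by the same amount, to 0.42, 0.79 and −0.31. These scalings subtract 1 constant per array, so the members' distance of 1.00 from all genes cannot move under them. It was 1.16 with quantile normalization, 1.14 with normexp and 0.86 with no filter on dim probes. Other genes of blood cells lay at a like distance at 0 h. Of 59 measured genes on a list of 60 other leukocyte genes, 33 were at least 2-fold higher and none lower on KO 0 h, with a median of 1.04. Of 23 measured mast cell markers, 11 were higher and none lower, with a median of 0.97 and a range of 0.06 to 1.39. The 7 mast cell markers with a mean 0 h level above 5 had a median of 0.39 and a range of 0.06 to 1.39. The 16 at 5 or below had a median of 1.03 and a range of 0.59 to 1.25, so the largest difference lay among the brighter markers. Lilrb4a was the only member above a level of 5, and the part that signal strength plays in its small difference was not tested.

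**Figure D4:**
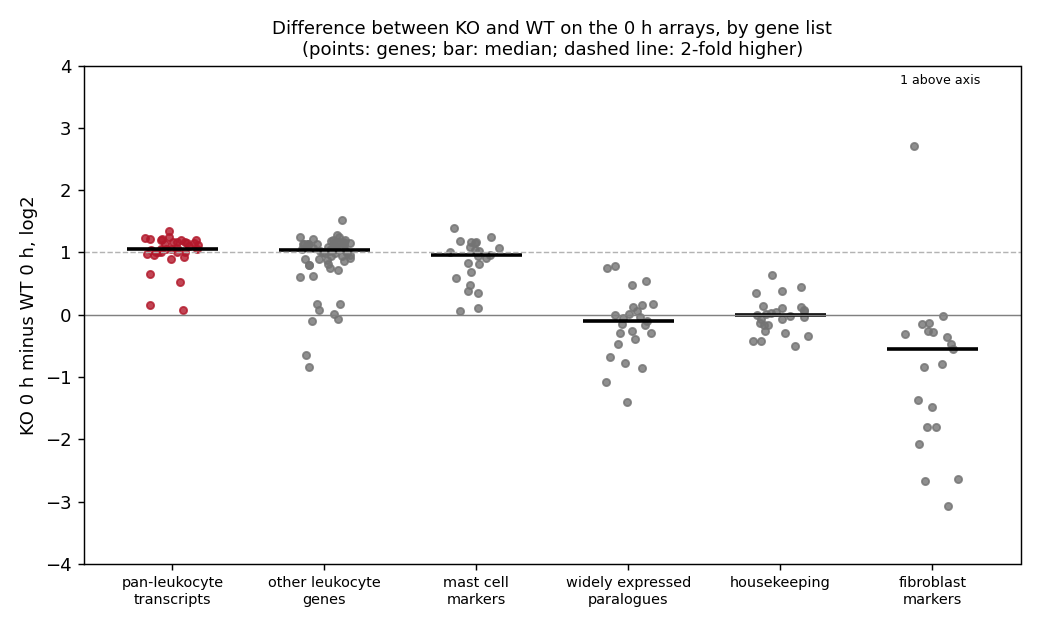
KO 0 h minus WT 0 h (y axis, log2) for measured genes of 6 lists; each point is 1 gene, black bars are medians and the dashed line is 2-fold higher. The pan-leukocyte transcripts (red), the other leukocyte genes and the mast cell markers centre near 1, the relatives and housekeeping genes near 0, and the fibroblast markers below 0, with Thy1 above the axis at 10.74.

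Fibroblast markers lay on the other side at 0 h, with a median of −0.56, 8 of 21 at least 2-fold lower on KO 0 h and 2 higher, Thy1 (10.74) and Postn (2.71). Housekeeping genes had a median of −0.01 and the widely expressed relatives −0.10. The mast cell markers and the other leukocyte genes share no gene with the 36 and lay higher on KO 0 h by a like amount. With 1 array each, RNA content per cell, cell number, the separation used and genotype cannot be told apart here.

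On the 24 h arrays, where most members lay near background, they showed no nearly constant offset between KO and WT cells. Of the 23 members measured, 6 were at least 2-fold lower and 1 higher in KO cells, with a median of −0.15, where 12.3% of all measured genes were lower and 5.76% higher, with a median of −0.09. The 6 were Inpp5d (−2.54 ± 0.24), Dock2 (−1.56 ± 0.29), Ptpn7 (−1.09 ± 0.38), Cd53 (−1.03 ± 0.23), Spn (−1.02 ± 0.20) and Selplg (−1.02 ± 0.23), and all but Inpp5d and Dock2 lay within 1 SE of the 2-fold line. The second probe of Selplg read −5.76 on KO 24 h and −5.78 on WT 24 h and so did not show its difference. Lilrb4a was the 1 higher (1.34 ± 0.21), and its second probe differed the other way. Rac2 and Tyrobp stood just short of 2-fold higher, at 0.90 ± 0.31 and 0.96 ± 0.22. Under quantile normalization 1 was lower and 6 higher, so the direction of the list at 24 h depends on the scaling. Of 16 measured mast cell markers, 1 was at least 2-fold lower and 3 higher in KO cells at 24 h, with a median of 0.33. Of 39 measured other leukocyte genes, 6 were lower and 4 higher, with a median of −0.13. Whether an offset between genotypes persisted at 24 h was not tested.

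The KO change between times, less the WT change, was negative for 22 of the 23 members measured on all 4 arrays. Over all genes so measured, it was negative for 8199 of 17122. Among the members it was at least 2-fold lower for 11 and higher for 1, with a median of −0.99, where 13.3% of all measured genes were lower and 4.72% higher, with a median of 0.03. This value contains the 0 h difference between genotypes, which alone was 1.06 in the median. The largest was Inpp5d at −3.44 ± 0.31, and Dock2 (−2.72 ± 0.35), Selplg (−2.19 ± 0.31), Cd53 (−2.09 ± 0.30), Ptpn7 (−2.01 ± 0.43) and Was (−1.85 ± 0.34) followed. Rac2 (−0.11 ± 0.37) and Tyrobp (−0.05 ± 0.30) lay within 1 SE of 0, and Lilrb4a stood at 1.19 ± 0.29, or −0.22 when its probes were averaged.

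Markers of other cell types place these values. On each 24 h array 18 of the 24 mast cell markers exceeded background clearly, against 23 on each 0 h array. Their linear levels summed to 19.2 on KO 24 h and 3.39 on WT 24 h, against 692 on KO 0 h and 474 on WT 0 h. Kit read −5.40 on KO 24 h and, not well above background, −6.14 on WT 24 h, against 5.37 on KO 0 h and 4.45 on WT 0 h, and Ms4a2, Mrgprb2 and Tpsab1 were above background on neither 24 h array. All 18 measured mast cell markers were at least 2-fold lower at 24 h in each genotype, with medians of −7.60 in KO cells and −7.59 in WT cells, led in WT cells by Tph1 (−10.64), Alox5 (−10.54) and Rab44 (−10.21). The median measured mast cell marker kept 0.515% of its 0 h signal in KO cells and 0.519% in WT cells, beside 0.876% in KO cells and 2.12% in WT cells for the pan-leukocyte transcripts. These shares leave out genes too dim at 24 h. With such genes at their bounds, the median time difference of 23 mast cell markers was −7.32 in KO cells and −7.23 in WT cells. For members it was −7.45 in KO cells and −6.16 in WT cells, so the order of the 2 lists in KO cells depends on the dim genes. The lists also differed in median 0 h level, 4.21 (KO 0 h) and 3.18 (WT 0 h) for mast cell markers against 2.27 and 1.16 for members. Their 24 h medians were −4.92 (KO 24 h) and −4.89 (WT 24 h) against −5.34 and −5.37. The part that 0 h level plays in the share kept was not tested. Much of the mast cell sum on KO 24 h was Il1rl1, the IL-33 receptor, which read 3.86 there and −2.24 on WT 24 h. Mitf, at 0.85, was the only mast cell marker above the 75th percentile on WT 24 h, and it read 1.08 on KO 24 h.

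Other leukocyte genes followed the members less closely. Of 47 measured in KO cells 39 were lower and 2 higher at 24 h (median −4.71), and of 43 in WT cells 29 were lower and 1 higher (median −3.17). Among measured genes, bounds left out, Gmfg, Fcer1g and Samsn1 had the lowest WT values (−8.39, −7.89 and −7.54), and Aif1, Elmo1 and Sla2 the highest (2.18, 0.95 and 0.67). Markers of macrophages and granulocytes moved both ways: of 12 measured in KO cells 3 were lower and 3 higher at 24 h (median −0.10), and of 13 in WT cells 2 were lower and 5 higher (median 0.37). Adgre1, the macrophage antigen F4/80, was lower by −4.56 ± 0.23 in KO cells and at least 26.7-fold in WT cells, and Cd68 differed by −1.92 in KO cells and −1.48 in WT cells. Of the 20 markers, 12 (KO 24 h) and 14 (WT 24 h) were well above background at 24 h against 16 on each 0 h array. Their summed level was 6.18 on KO 24 h and 6.50 on WT 24 h, against 5.13 on KO 0 h and 5.80 on WT 0 h. Of 19 lymphocyte markers, 6 (KO 24 h) and 10 (WT 24 h) were well above background, against 12 (KO 0 h) and 10 (WT 0 h), with sums of 0.853 (KO 24 h) and 0.973 (WT 24 h), against 1.15 (KO 0 h) and 0.911 (WT 0 h). Of 17 megakaryocyte and erythroid markers, 9 (KO 24 h) and 10 (WT 24 h) were above background, against 14 on each 0 h array, with sums of 1.08 (KO 24 h) and 3.30 (WT 24 h), against 44.2 (KO 0 h) and 21.4 (WT 0 h). Within that list 4 of 9 measured genes were at least 2-fold lower and 1 higher in KO cells (median −0.12), and 4 of 10 lower and 2 higher in WT cells (median 0.54). Among its measured genes, Nfe2, Vwf and Itga2b had the lowest WT time differences (−5.42, −5.34 and −4.0), and Pf4 and Gp6 stood at the other end (3.72 and 1.73). Fibroblast markers were well above background for 20 of 22 on KO 24 h and 21 of 22 on each other array, with sums of 492 (KO 24 h) and 535 (WT 24 h), against 290.4 (KO 0 h) and 376 (WT 0 h).

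The promoters of these genes were also described, and whether they bear on the differences between arrays was not tested. RefSeq promoter windows (GRCm38.p6) were found for 27 of the 36, in 34 windows of 250 bases before a start. The PU.1-type ETS letters GAGGAA, or TTCCTC on the other strand, stood in the windows of 13 of the 27 (48.1%), against 25.9% of 27025 genes. The RUNX letters TGTGGT or ACCACA stood in 7 (25.9%), against 15.9% of genes, the GATA letters AGATAA or TTATCT in 3 (11.1%), against 11.4%, and TATAAA or TTTATA in 4 (14.8%), against 14.3%. A match of letters is a description and not a bound site. The last 100 bases before the start are shown for Laptm5, Inpp5d and Vav1, with the ETS letters in capitals, and for Fermt3, with the RUNX letters in capitals, each 5′ to 3′ on the gene's strand (GRCm38.p6).
Laptm5, chr4:130913216-130913315, plus strand: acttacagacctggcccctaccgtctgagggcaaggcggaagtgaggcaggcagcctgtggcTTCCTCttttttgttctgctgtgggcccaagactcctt
Inpp5d, chr1:87620212-87620311, plus strand: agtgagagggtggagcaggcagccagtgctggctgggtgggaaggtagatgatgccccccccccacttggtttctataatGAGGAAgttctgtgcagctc
Vav1, chr17:57279000-57279099, plus strand: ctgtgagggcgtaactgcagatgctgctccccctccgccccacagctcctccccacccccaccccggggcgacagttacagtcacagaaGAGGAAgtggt
Fermt3, chr19:7019470-7019569, minus strand: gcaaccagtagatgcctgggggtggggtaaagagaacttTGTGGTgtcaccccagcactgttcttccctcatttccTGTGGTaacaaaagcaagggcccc
The ETS letters lie close before the start in Inpp5d and Vav1, farther before it in Laptm5, and the Fermt3 window holds the RUNX letters at separate places.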

How the data were processed

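Per the file headers, the authors extracted spot intensity with Agilent Feature Extraction 12.1.1.1 from arrays of design 026655, with probes placed on mm9, and the processed intensity was background-subtracted and detrended. The authors' deposited value table holds a ratio, the processed signal over the array's 75th percentile. Here log2 of the processed signal less the 75th percentile over 43020 non-control spots was used, without flagged outlier spots (93 to 122 per array), averaged over the spots of a probe. Of 39429 probes, 29110 were named through RefSeq accessions (GRCm38.p6) and 10319 kept the file's name. A gene took its probe with the highest mean signal. The 36 members had 51 probes, and 14 members had several. An at-least fold divides the brighter array's signal by the dimmer array's reading or its floor, whichever is larger, and values near the floor have no order.

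The members and all lists were chosen with earlier results of these data known. All members may be named; of each other list, up to 3 genes at each end of the WT time difference and every relative. Kit, Ms4a2, Mrgprb2, Tpsab1, Il1rl1, Adgre1, Postn and Thy1 were added after their values were seen. With 1 array per group there was no test; p-values are not given. The 9 alternatives were quantile normalization, normexp (offset 50) with quantile normalization (limma 3.58.1, R 4.3.3), the authors' table, no filter and a stricter filter on dim probes, the mean of probes, and scaling on housekeeping genes, fibroblast markers and spike-in RNAs. Other steps used Python 3.11.15, numpy 2.4.6 and pandas 2.3.3, and the scripts were tested on simulated data. The position of probes within exons or UTRs was not analysed here. Precision is limited by there being 1 array per group.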

Additional observations from a re-analysis of the deposited data

Results flagged for a closer look

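Among the members, Dock2, Selplg and Cd53 differed by at least 2-fold between genotypes in opposite directions at the times, so the KO minus WT difference at 24 h less that at 0 h stood out. For Dock2 it was −2.72 (−1.56 at 24 h and 1.17 at 0 h), for Selplg −2.19 (−1.02 at 24 h and 1.17 at 0 h) and for Cd53 −2.09 (−1.03 at 24 h and 1.06 at 0 h). With 1 array per group these differences were not tested. The second probe of Selplg differed by 0.026 at 24 h and 1.08 at 0 h, and the second probe of Dock2 was not well above background at 24 h. The opposite 2-fold calls depend on the scaling. At 24 h Cd53 and Selplg were −0.89 and −0.88 when scaled on housekeeping genes and −0.93 and −0.91 on fibroblast markers, and with quantile normalization Dock2, Selplg and Cd53 were −0.98, −0.80 and −0.89. At 0 h they were 0.80, 0.81 and 0.69 in that order of genes on the spike-in RNAs. The signs at 24 h and at 0 h stayed opposite under all 9 alternatives.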

How the results depend on the processing

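The counts of members at least 2-fold lower at 24 h stayed within 1.5 times of 26 in KO cells and 25 in WT cells under all 9 alternatives, and no called time difference of a member changed sign. The median time difference in KO cells was −6.47 with quantile normalization, −5.30 with normexp, −7.76 with no filter, and −7.27, −7.75 and −7.43 when scaled on housekeeping genes, fibroblast markers and spike-in RNAs. In WT cells it was −4.11 with normexp, −6.18 with no filter, −5.16 with the mean of probes, −5.85 on fibroblast markers and −5.83 on spike-in RNAs. The median share of 0 h signal kept in KO cells was 1.13% (quantile), 2.53% (normexp), 0.460% (no filter), 0.647% (housekeeping), 0.463% (fibroblast) and 0.581% (spike-in). In WT cells it was 5.81% (normexp), 1.38% (no filter), 2.79% (mean of probes), 1.74% (fibroblast) and 1.76% (spike-in). For KO against WT at 24 h, the members lower were 1 (quantile and normexp), 10 (no filter and spike-in) and 2 (housekeeping and fibroblast), and those higher were 6 (quantile), 5 (no filter), 3 (housekeeping), 2 (fibroblast) and 0 (normexp, mean of probes and spike-in). That median was 0.38 (quantile), 0.21 (normexp) and −0.84 (spike-in), so no direction at 24 h held under every scaling. At 0 h, 16 of 23 members were higher in KO under the stricter filter, which tests fewer genes, and 0 of 35 on spike-in RNAs, with medians of 1.42 (housekeeping), 1.79 (fibroblast) and 0.69 (spike-in). For the KO change less the WT change, 7 were lower (quantile and normexp), 18 (no filter), 20 (fibroblast) and 17 (spike-in), and the median was −1.62 on fibroblast markers. Lilrb4a was −0.22 in that difference with the mean of probes, since its probes disagree. The share of all calls that were higher in KO at 0 h was 69.6%, and 58.2% (quantile), 59.2% (normexp), 90.5% (housekeeping), 96.6% (fibroblast) and 20.4% (spike-in). At 24 h it was 31.9%, and 46.5%, 50.6%, 41.9%, 39.0% and 6.19% in the same order of settings. Between times in KO cells it was 46.5%, and 61.1% (quantile), 12.05% (housekeeping), 2.04% (fibroblast) and 6.85% (spike-in). In WT cells it was 73.9%, and 64.9% (quantile), 38.8% (normexp), 60.9% (housekeeping), 55.8% (fibroblast) and 57.4% (spike-in). The cause of these shifts was not tested. No paired analysis was possible because each group had 1 array and the labels give no replicate numbers. Signals near background limit the 24 h values of most members.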
